A study of Mus musculus with 12 samples.

Results

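The genes described here are 10 members of the Wnt signalling network, chosen by symbol from the 22738 gene rows of a count table: the secreted antagonists Sfrp1, Sfrp2, Sfrp4, Sfrp5, Frzb, Dkk2, Dkk3 and Wif1, and the feedback and target genes Axin2 and Lef1. All 10 were found, and all 10 were among the 17426 genes that passed a filter on low counts. The set was drawn up with earlier results of these libraries known, in which Sfrp2 was among the genes that rose most under entinostat without overlap between libraries. Its difference with entinostat and its lack of overlap are therefore descriptions and support nothing. The differences of the other members with entinostat come from that same contrast and are treated in the same way.

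RNA was sequenced from lung tumours of mice that carried floxed Rb1 (fl/fl), floxed p53 (fl/fl) and the Myc mutant T58A as lsl/lsl, a model of small cell lung cancer. In every mouse, tumours had been started at 8 weeks of age with Ad5CGRP-Cre, an adenovirus instilled into the trachea whose Cre is driven by the promoter of the neuroendocrine peptide gene CGRP. All groups thus share the deletions and the mutant Myc. The tissue was dissected whole tumour, which also holds stromal and immune cells. The 12 libraries fell into 4 groups of 3. Control mice received no active agent, and the labels do not tell whether these 3 had the oral vehicle methylcellulose or the isotype antibody. An anti-PD-1 group was injected with an antibody against the T cell checkpoint receptor PD-1 at 10 mg/kg over 4 weeks. An entinostat group took this oral inhibitor of class I histone deacetylases at 15 mg/kg daily for 28 days, and a combination group received both. Nothing in the labels says that the libraries of a group are separate mice, so p-values measure only the spread between these libraries, which may be technical.

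Wnt ligands are secreted lipid-modified proteins that bind Frizzled receptors together with the co-receptors Lrp5 and Lrp6, stabilise beta-catenin and let it act with TCF and LEF factors on target genes. Secreted frizzled-related proteins (Sfrp1, Sfrp2, Sfrp4, Sfrp5 and Frzb) carry a Frizzled-like domain and bind ligands outside the cell, where they can block or spread them. Wif1 also binds ligands, Dickkopf proteins such as Dkk2 act on the Lrp co-receptors, and Axin2 is both a target and a brake of the pathway. In the lung such genes are known mainly from mesenchyme and epithelium during development and repair.

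Total counts per library ranged from 31295987 to 54001886, and values are given as CPM, the count scaled to a common library size with TMM factors. Counts from 1 to 20 were even in 65.3% to 77.2% of cases per library, so a small count may stand for fewer fragments than it states. The cause of this excess was not tested. Neuroendocrine tumour markers were present in every library, at a summed level between 553 and 2578 CPM. Control library 1 had the highest of these sums. The structural RNAs Rpph1, Rn45s and Rmrp took 7.84% to 13.2% of counts in controls, 15.2% to 19.3% in the 6 libraries with entinostat and 20.5% to 36.4% under anti-PD-1 alone, so every comparison with control also sets lower against higher shares of them. With these 3 rows removed before scaling, the entinostat main effect below was 3.10 for Sfrp2 and 3.11 for Lef1, as with them. For the combination libraries the tag for treatment lists only the antibody, whereas the titles list both agents, and the titles were used.

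Sfrp2, a ligand-binding antagonist expressed mostly by mesenchymal cells, was low in the tumours without entinostat and higher in every tumour with it. In controls it stood at 2.31, 0.95 and 0.66 CPM in libraries 1, 2 and 3. With anti-PD-1 alone it stood at 0.33, 1.06 and 2.18 CPM, which overlapped the control range. With entinostat it stood at 14.6, 9.19 and 4.12 CPM, and with the combination at 17.5, 11.7 and 7.99 CPM. The lowest library with entinostat lay above the highest library without it. Group means were 1.19 ± 0.93 CPM under anti-PD-1, 1.31 ± 0.88 in controls, 9.31 ± 5.25 under entinostat and 12.4 ± 4.79 under both agents (SD, n = 3 each). Neighbours in this order that share their entinostat status did not differ beyond their spread. On the log2 scale anti-PD-1 alone differed from control by -0.14 (SE 0.69) and the combination from entinostat by 0.41 (SE 0.68).

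**Figure D1:**
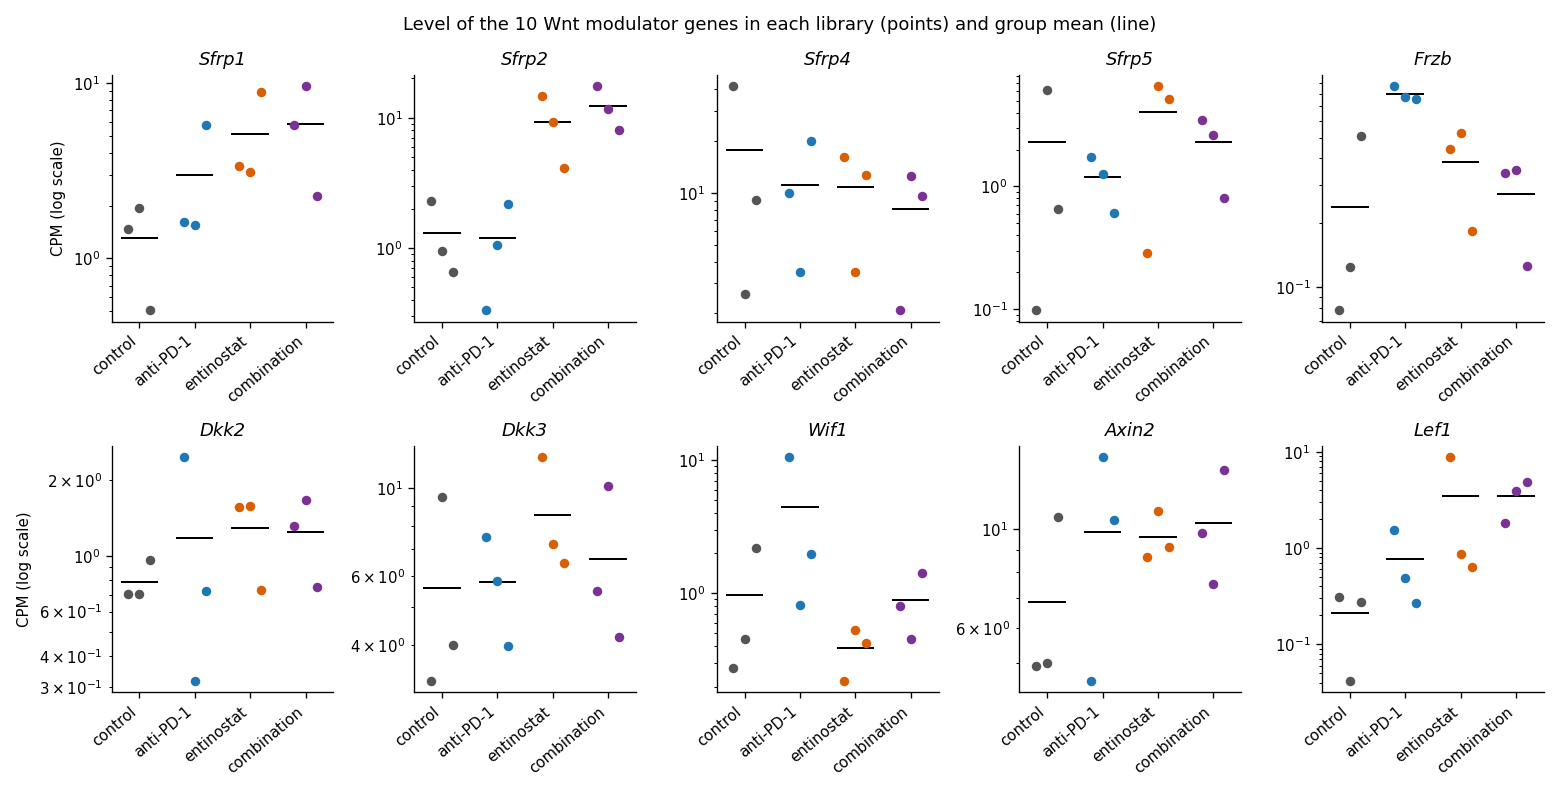
Each panel plots 1 gene, with CPM on a log axis, a point per library and a line at the mean of each group of 3. Sfrp2 separates the 6 libraries with entinostat (4.12 to 17.5 CPM) from the 6 without (0.33 to 2.31 CPM), while the ranges of the other 9 genes overlap between these sets.

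The entinostat main effect, the mean of the drug's differences without and with the antibody, was a log2 fold change of 3.10 for Sfrp2 (SE 0.52). It was 2.83 (SE 0.73) without the antibody and 3.38 (SE 0.75) with it. Leaving out each library in turn gave main effects between 2.86 and 3.48, and without control library 1 the value was 3.45. Of the 10 members, Sfrp2 alone had all 6 libraries with entinostat above all 6 without, an arrangement held by 2.01% of the 17426 genes and used in choosing it.

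The interaction, the drug's difference with the antibody minus that without it, was 0.55 on the log2 scale for Sfrp2 (SE 0.97). The lack of overlap that singled out Sfrp2 forces both of these differences to be positive, so its interaction is a description too, given with no p. The same lack of overlap keeps both groups without entinostat below both groups with it. It thus limits how far Sfrp2 can differ with the antibody, so those differences are also given with no p. The anti-PD-1 main effect on Sfrp2 was 0.14 (SE 0.49), with a 95% interval from 0.528-fold to 2.30-fold. This difference was smaller than the spread between replicates, and its sign changed in 4 of the 12 fits that left out a library.

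Levels per kilobase of the longest annotated coding transcript can be compared between genes. By group mean, Sfrp2 was below Sfrp4, Dkk3, Axin2 and Sfrp5 in control tumours and highest in both groups with entinostat. In control library 1 Sfrp2 at 1.15 CPM per kilobase lay above Dkk3 (0.97) and Sfrp5 (0.05) and level with Axin2 (1.15). Control library 2, at 3.24 CPM per kilobase, set the control mean of Sfrp5. In entinostat library 3, however, Sfrp2 at 2.06 CPM per kilobase lay below Sfrp4 (3.14), Sfrp5 (2.72) and Axin2 (2.14). In controls the mean levels were 4.40 ± 5.20 CPM per kilobase for Sfrp4, 1.66 ± 1.01 for Dkk3, 1.61 ± 0.77 for Axin2, 1.21 ± 1.76 for Sfrp5 and 0.652 ± 0.440 for Sfrp2 (SD, n = 3). Under entinostat alone Sfrp2 averaged 4.65 ± 2.62 CPM per kilobase, Sfrp4 2.67 ± 1.62 and Dkk3 2.54 ± 0.89. In the combination group Sfrp2 averaged 6.19 ± 2.39 CPM per kilobase, Axin2 2.42 ± 0.72 and Sfrp4 2.00 ± 1.34. Frzb and Lef1 were lowest in control tumours, at 0.0750 ± 0.0746 and 0.0606 ± 0.0425 CPM per kilobase.

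In mouse build GRCm38 Sfrp2 lies on chromosome 3 from 83766321 to 83774316 on the plus strand, and Lef1 lies on the same chromosome from 131110471 to 131224356, also on the plus strand. The counts were made on another build, mm9, so these positions belong to the reference and not to the counts. The 250 bases before the annotated start are shown for Sfrp2 and Lef1, the members with the largest positive differences with entinostat, and for Axin2, a feedback gene whose difference was small. They come from RefSeq on GRCm38.p6, plus strand, at chr3:83766071-83766320, chr3:131110047-131110296 (the first of 4 annotated starts) and chr11:108920099-108920348. Capitals mark GGGCGG, the GC box, and ATTTGCAT, the octamer motif.
Sfrp2: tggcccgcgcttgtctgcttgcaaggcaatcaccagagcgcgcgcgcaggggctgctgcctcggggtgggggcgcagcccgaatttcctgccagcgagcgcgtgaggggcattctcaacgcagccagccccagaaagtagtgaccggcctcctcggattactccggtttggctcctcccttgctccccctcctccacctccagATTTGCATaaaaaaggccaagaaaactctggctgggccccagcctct
Lef1: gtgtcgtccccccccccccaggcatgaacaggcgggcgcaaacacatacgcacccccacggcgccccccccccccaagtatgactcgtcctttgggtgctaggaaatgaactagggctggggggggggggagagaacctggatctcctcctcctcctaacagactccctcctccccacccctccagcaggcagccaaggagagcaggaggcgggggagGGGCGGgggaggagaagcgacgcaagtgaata
Axin2: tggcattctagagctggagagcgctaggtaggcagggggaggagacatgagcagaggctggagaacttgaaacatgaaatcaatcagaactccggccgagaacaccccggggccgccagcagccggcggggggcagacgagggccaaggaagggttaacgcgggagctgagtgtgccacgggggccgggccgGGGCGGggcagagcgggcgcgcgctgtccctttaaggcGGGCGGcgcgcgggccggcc

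Windows of this kind were found for 7 of the 10 members (Sfrp2, Sfrp5, Frzb, Dkk2, Wif1, Axin2 and Lef1), 10 windows in all. Both strands were searched for a pair of TCF/LEF core motifs. The core CTTTGAT was in 0 of the 10 windows and in 3.21% of all 32851 windows of this length. The core that ends in A in place of T was in 0 of the 10 and in 4.46% of all. The GC box was in 8 of the 10 windows, with at least 1 from each matched member but Sfrp2, and in 32.7% of all windows. Lef1 gave 4 of the 10, and its first 2 overlap and hold the same GC box, so the 8 are not independent. The octamer, searched for after the Sfrp2 sequence had been read, was in that window alone among the members' and in 1.6% of all windows. The marked motifs did not overlap each other. The Sfrp2 window held 16 CpG dinucleotides, the Lef1 window 11 and the Axin2 window 24, against a median of 6 over all windows. These matches describe letters and say nothing of binding, which was not measured.

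Among the other secreted frizzled-related genes, Sfrp1, a ligand-binding antagonist close to Sfrp2 and Sfrp5, had the largest positive difference with entinostat. Sfrp1 stood at 1.47, 1.95 and 0.51 CPM in the control libraries and at 1.60, 1.55 and 5.80 CPM with anti-PD-1. With entinostat it stood at 3.36, 3.10 and 8.86 CPM and with the combination at 5.75, 9.63 and 2.26 CPM. Sfrp1 in anti-PD-1 library 3 lay within the range of the libraries with entinostat. Its entinostat main effect was 1.47 (SE 0.53).

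Sfrp4, another secreted frizzled-related antagonist, varied more between replicates than between groups. It stood at 41.8, 2.59 and 9.06 CPM in the control libraries, and between 2.09 and 20.0 CPM in the other 9. Control library 1 set the control mean, and the entinostat main effect of -0.59 (SE 0.68) became 0.21 without it. Sfrp5, a close relative of Sfrp1 and Sfrp2, stood at 0.10, 6.15 and 0.66 CPM in the control libraries, 1.74, 1.27 and 0.60 with anti-PD-1, 0.29, 6.59 and 5.16 with entinostat, and 3.46, 2.64 and 0.80 with the combination. Every group overlapped every other. The entinostat main effect on Sfrp5 of 0.87 (SE 0.88) became 2.17 without control library 2.

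Frzb, also called Sfrp3, was the rarest frizzled-related gene and had between 4 and 26 counts per library. It stood at 0.87, 0.78 and 0.76 CPM with anti-PD-1 alone, above the other 9 libraries. These stood at 0.08, 0.12 and 0.51 CPM in controls, 0.44, 0.53 and 0.18 under entinostat and 0.34, 0.35 and 0.13 under both agents. The difference between anti-PD-1 alone and control was 1.76 on the log2 scale (SE 0.80, edgeR adjusted p = 0.317) and the interaction was -2.25 (SE 1.12, adjusted p = 0.846). Neither passed the test. The share of all genes with the 3 libraries of anti-PD-1 alone above the other 9 was not counted, and those 3 held 22 to 26 counts of Frzb.

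Dkk2, a Dickkopf ligand of the Lrp co-receptors, lay between 0.32 and 2.47 CPM over all 12 libraries, with both extremes in the anti-PD-1 group. Its entinostat main effect was 0.40 (SE 0.50) and became 0.96 without anti-PD-1 library 1. Dkk3, a divergent Dickkopf relative, lay between 3.25 and 12.0 CPM, with overlap between all groups, and its entinostat main effect was 0.41 (SE 0.35).

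Wif1, a secreted inhibitor that binds Wnt ligands, had the most negative difference with entinostat of the 10. It stood at 0.27, 0.46 and 2.18 CPM in controls and at 10.6, 0.81 and 1.96 CPM with anti-PD-1 alone. With entinostat it stood at 0.22, 0.53 and 0.43 CPM, and with the combination at 0.80, 0.45 and 1.43 CPM. Anti-PD-1 library 1, with 316 counts, was far above the other 11 libraries. The control range of Wif1 overlapped every other group. Its entinostat main effect was -1.80 (SE 0.71), which became -0.98 without anti-PD-1 library 1 and -1.11 without control library 3. The anti-PD-1 main effect was 1.70 (SE 0.71, edgeR adjusted p = 0.425), which did not pass, and without that library it was 0.85.

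Axin2, the feedback gene most often read as a marker of beta-catenin activity, overlapped between all groups. It averaged 6.85 ± 3.29 CPM in controls, 9.87 ± 5.04 under anti-PD-1, 9.59 ± 1.25 under entinostat and 10.3 ± 3.07 under both agents (SD, n = 3 each). Controls 1 and 2 were low at 4.91 and 4.99 CPM, and control 3 lay at 10.7 CPM among the treated libraries. Its entinostat main effect was 0.28 (SE 0.32). The anti-PD-1 main effect was 0.32 (SE 0.32, adjusted p = 0.736), with a 95% interval from -0.38 to 1.01.

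Lef1, a DNA-binding partner of beta-catenin and also a T cell factor, was close to the floor in controls and uneven with entinostat. It stood at 0.31, 0.04 and 0.28 CPM in controls, which corresponds to at most 16 counts, and at 1.54, 0.49 and 0.27 CPM with anti-PD-1. With entinostat it stood at 8.93, 0.88 and 0.64 CPM and with the combination at 1.83, 3.90 and 4.85 CPM. Lef1 in entinostat libraries 2 and 3 lay below that in anti-PD-1 library 1. Its entinostat main effect was 3.11 (SE 0.79) and became 2.02 without entinostat library 1. The interaction was -1.83 (SE 1.47, edgeR adjusted p = 0.899), and its sign turned without that same library.

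Read across the members, 7 of 10 had a positive entinostat main effect, with a median log2 fold change of 0.40 beside 0.02 over all genes. Sfrp2 and Lef1 were the 2 members past an edgeR adjusted p of 0.05 in that contrast, where 10.6% of all genes passed in either direction and 3.87% passed as higher. Under DESeq2 Sfrp1, as higher, and Wif1, as lower, were called too. Lef1 was no longer called in 6 of the 12 fits that left out a library, namely those without control 2, without anti-PD-1 library 2 or 3, without entinostat library 1, and without combination library 1 or 3. For entinostat alone against control, 1 member passed (Sfrp2) beside 5.27% of all genes, and no member did with only those 6 libraries in the fit or with the replicate number as a block. With libraries left out in turn, the call held without anti-PD-1 library 1 or 3 and was lost in the other 10 fits. For the combination against control, 2 passed (Sfrp2 and Lef1) beside 11.7%, 3 did under DESeq2, and 0 did with only those 6 libraries or without control 2, control 3, combination 1 or combination 3. Without control 1, anti-PD-1 library 2, entinostat library 2 or combination library 2, 1 member passed. For the combination against anti-PD-1, edgeR called no member beside 0% of all genes (2168 genes at an unadjusted p below 0.05), and DESeq2 called 1 member and 422 genes. These comparisons share libraries and hold the difference that put Sfrp2 forward, so the members' calls in them are descriptions and support nothing.

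**Figure D2:**
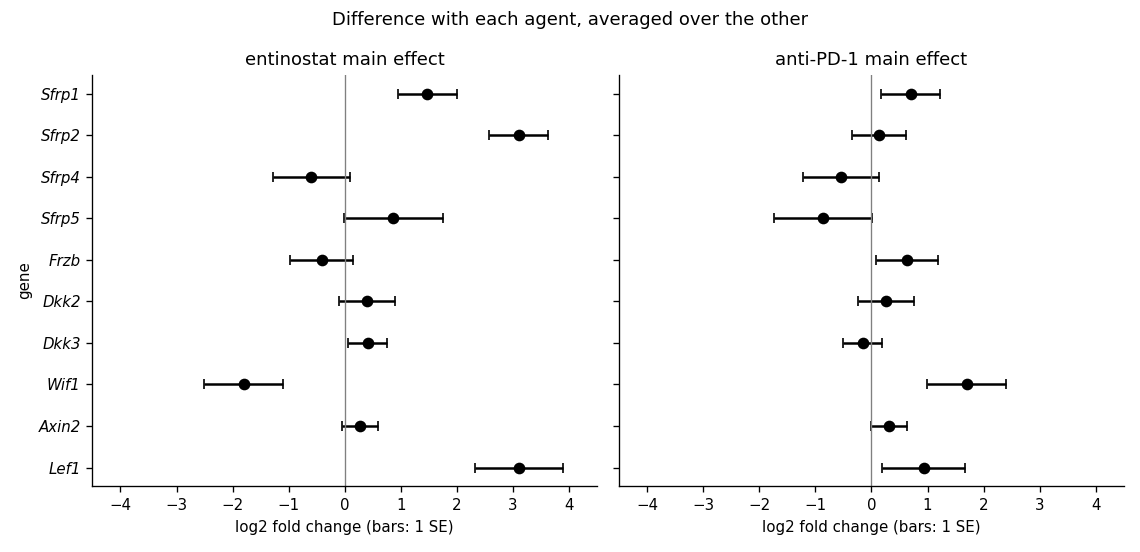
Points give the log2 fold change of each of the 10 genes with entinostat (left) and with anti-PD-1 (right), each averaged over the other agent, and bars are 1 SE. Sfrp2 and Lef1 lie at 3.10 and 3.11 on the left, Wif1 lies at -1.80 on the left and 1.70 on the right, and Axin2 lies at 0.28 and 0.32.

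No member passed in the comparisons that divide the libraries by the antibody or in the interaction, and Sfrp2 is left aside in all of them. For the anti-PD-1 main effect the smallest edgeR adjusted p among the members was 0.425, and 1 member had an unadjusted p below 0.05 (Wif1). The share of all genes called was 0%, while 1886 of 17426 had an unadjusted p below 0.05 and DESeq2 called 58. For anti-PD-1 alone against control, 2 members had an unadjusted p below 0.05 (Frzb and Wif1), the smallest adjusted p was 0.317, and 0.00574% of genes, a single gene, were called. For the combination against entinostat and for the interaction, edgeR called 0% of genes each and no member had an unadjusted p below 0.05, beside 270 and 1052 of all genes. DESeq2 called 1 and 52 genes there. DESeq2 called no member in any of these 4 comparisons.

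The tissue around Sfrp2 differed between the groups as well. Fibroblast markers summed to between 355 and 430 CPM in controls, 242 and 912 under anti-PD-1, 692 and 864 under entinostat, and 598 and 1538 under both agents. Of 15 fibroblast genes tested, 1 rose with entinostat, Pdgfra, a receptor of mesenchymal cells (1.18, SE 0.33, edgeR adjusted p = 0.043), and 14 had a positive sign, with a median of 0.71. The most abundant of them, Col3a1 (0.93, SE 0.42, adjusted p = 0.172), Col1a1 (1.32, SE 0.41, adjusted p = 0.058) and Col1a2 (1.07, SE 0.42, adjusted p = 0.120), which encode fibrillar collagens, did not pass. Col1a1, Col1a2 and Col3a1 made up 41.1% to 82.1% of these sums. Without those 3 collagens the sums were 93.2 to 187 CPM in controls, 142 to 169 under anti-PD-1, 149 to 171 under entinostat and 176 to 275 under both agents, and the control range overlapped every other group. Anti-PD-1 library 1 had the lowest Sfrp2, at 0.33 CPM, and the second highest fibroblast sum, at 912 CPM, of which 743 CPM were the collagens. Its Pdgfra, at 14.0 CPM, lay within the control range of 6.88 to 14.4 CPM, and its sum without the collagens was 169 CPM. Mural and smooth muscle markers summed to 250 to 380 CPM in controls and 139 to 269 under anti-PD-1. They summed to 270 to 414 CPM under entinostat and 258 to 383 under both agents, overlapping the controls. Of these 10 genes 3 rose with entinostat, Myh11 (1.24, SE 0.29), Cspg4 (1.30, SE 0.32) and Notch3 (1.00, SE 0.29), at edgeR adjusted p between 0.025 and 0.049. Of the 10, 9 had a positive sign, and 3.87% of all genes were called higher. Neuroendocrine tumour markers summed to between 1536 and 2578 CPM in controls, 1145 and 1637 under anti-PD-1, 737 and 1207 under entinostat and 553 and 1121 under both agents. Of these 13 genes 6 fell with entinostat and none rose, with Scg5 (-1.88, SE 0.25) and Stmn3 (-1.99, SE 0.28) at the smallest adjusted p. Over all 17426 genes 1175 were called lower and 674 higher. In bulk tissue fewer cells of a type and less RNA per cell cannot be told apart, and the part of these marker differences in the Sfrp2 difference was not tested.

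**Figure D3:**
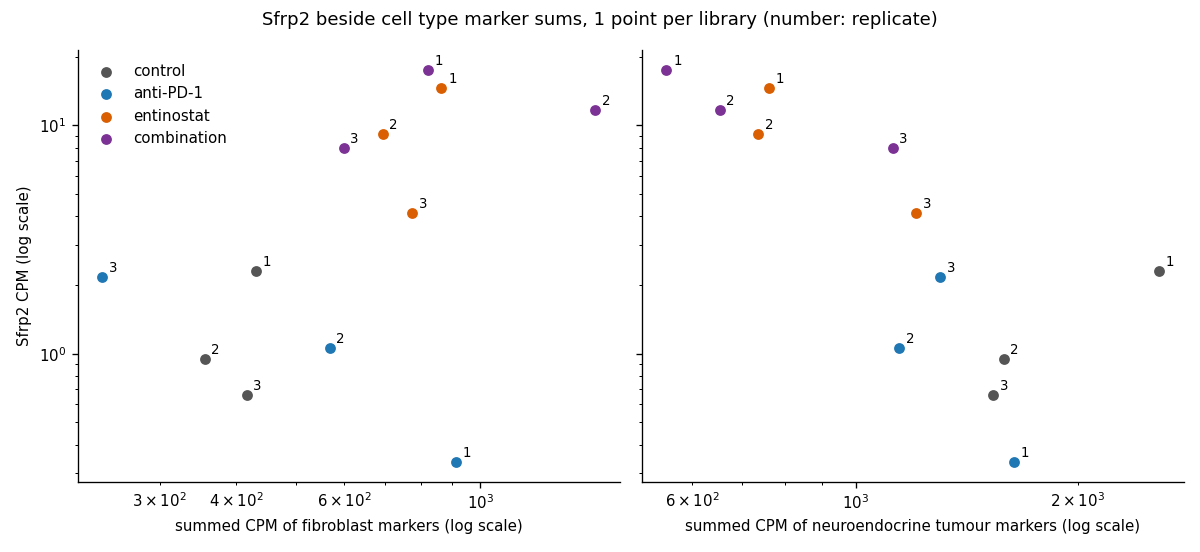
Each point is a library, with the CPM of Sfrp2 on a log axis against the summed CPM of 15 fibroblast markers (left) or 13 neuroendocrine markers (right), also on log axes. The 6 libraries with entinostat lie highest on the vertical axis, and anti-PD-1 library 1, whose 912 CPM of fibroblast markers were mostly the 3 collagens (743 CPM), lies lowest.

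Lef1 and its relative Tcf7 are also T cell genes, so the T cell markers were read beside them. The T and NK cell list summed to between 6.30 and 9.42 CPM in controls, 6.81 and 17.4 under anti-PD-1, 8.74 and 14.0 under entinostat and 11.9 and 16.8 under both agents, with Tcf7 itself included. Cd3e, a chain of the T cell receptor complex, was at 0 counts in 5 of the 12 libraries and reached at most 17. Entinostat library 1 had the highest Lef1, with 406 counts, and had 0 counts of Cd3e, 14 of Cd3d and 10 of Cd3g. Anti-PD-1 library 1 had the highest Lef1 without entinostat, 1.54 CPM, and the highest counts of Cd3d (76) and of Cd8a, a cytotoxic T cell co-receptor (52). Combination library 2, with 3.90 CPM of Lef1, had the highest counts of Cd3e (17) and Cd3g (45). Combination library 3, with 4.85 CPM of Lef1, had 0 counts of Cd3e and Cd3d and 3 of Cd3g. The same library had 18 counts of Cd8a and 102 of Cd4, another T cell co-receptor. Cd4 stood at 2.96 to 4.74 CPM in controls and 1.45 to 2.87 under anti-PD-1. It stood at 0.92 to 2.15 CPM under entinostat and 1.11 to 2.56 under both agents. Of 7 tested genes of that list, Tcf7 alone passed with entinostat, beside 3.87% of all genes called higher, and 3 had a positive sign. The part of T cells in the Lef1 difference was not tested.

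For the remaining marker lists, no tested gene passed in the entinostat main effect among 10 endothelial (median log2 fold change 0.38), 7 mesothelial (0.18), 12 alveolar (0.83), 8 airway (-0.48) or 10 macrophage and monocyte genes (0.68).

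The rest of the pathway was read from 98 further genes, of which 83 could be tested. In the entinostat main effect 7 rose and 1 fell, or 9.64% beside 10.6% of all genes. In the combination against control 10 rose and 1 fell, or 13.3% beside 11.7%, and for entinostat alone against control 2 rose (Lrp5 and Cd44) and 1 fell (Ctnnbip1), or 3.61% beside 5.27%. Pooled over directions, the shares called lay near those of all genes, but the directions were split otherwise. As higher, 8.43% of the pathway genes were called in the entinostat main effect beside 3.87% of all genes, 12% beside 3.88% in the combination against control and 2.41% beside 1.3% for entinostat alone against control. As lower, 1 of the 83 pathway genes (1.2%), Ctnnbip1, was called in each, beside 1175, 1356 and 693 of all 17426 genes in the same order. With upper quartile factors the main effect gave 12 pathway genes higher and 1 lower beside 1046 higher and 632 lower over all genes, against 674 and 1175 with TMM. These shares describe lists and were not tested. Without a single library the count of 8 fell to 3 (anti-PD-1 library 1 or 3, or entinostat library 2), 4 (entinostat library 1 or 3, or combination library 1) or 5 (combination library 3). In the other 5 comparisons edgeR called none, with between 2 and 13 of the 83 genes at an unadjusted p below 0.05, and DESeq2 called between 0 and 2.

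Of the 16 tested ligands and export factors none passed in the entinostat main effect, at a median log2 fold change of 0.86 beside 0.02 over all genes. The most abundant were Wls, which carries ligands to the cell surface (1.00, SE 0.41, edgeR adjusted p = 0.127), and Wnt7b, an epithelial ligand (0.73, SE 0.57, adjusted p = 0.419). Wnt5a, a ligand that often signals without beta-catenin, rose in the combination against control (2.07, SE 0.58, edgeR adjusted p = 0.041), from 0.57 ± 0.03 to 2.38 ± 0.14 CPM (SD, n = 3 each). Of 10 other Wnt inhibitors, not all of them secreted, 1 was called, higher in the combination than in control, beside 3.88% of all genes. This was Igfbp4, an insulin-like growth factor binding protein that also binds Wnt receptors (1.70, SE 0.33, edgeR adjusted p = 0.012). It stood at 8.98 ± 2.58 CPM in controls, 22.3 ± 8.35 under anti-PD-1, 17.1 ± 2.38 under entinostat and 29.3 ± 6.70 under both agents (SD, n = 3 each), and passed with each library left out in turn.

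Of 24 receptor and R-spondin genes 2 rose with entinostat, beside 3.87% of all genes. They were the co-receptors Lrp5 (1.13, SE 0.24, edgeR adjusted p = 0.017) and Lrp6 (0.64, SE 0.15, adjusted p = 0.027). Lrp5 went from 29.6 ± 10.8 to 63.2 ± 20.5 CPM and Lrp6 from 73.8 ± 19.8 to 113.7 ± 9.69 CPM (SD, n = 6 each). In the combination against control 5 rose, beside 3.88% of all genes. They were Lrp5, Lrp6, the R-spondin receptor Lgr6 (2.40, SE 0.69), the Wnt enhancer Rspo1 (2.10, SE 0.53) and the receptor Fzd1 (1.55, SE 0.40). The new calls among these had edgeR adjusted p between 0.030 and 0.046. Rspo1 stood at 0.69 ± 0.20 CPM in controls, 1.02 ± 0.49 under anti-PD-1, 1.06 ± 0.34 under entinostat and 2.98 ± 0.80 under both agents (SD, n = 3 each), and no pathway gene passed in the interaction.

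Of 23 genes of the beta-catenin core 3 rose and 1 fell with entinostat, beside 674 and 1175 of all 17426 genes. Tcf7l2, the main TCF factor of epithelia, rose by 1.69 (SE 0.43, edgeR adjusted p = 0.031) from 1.43 ± 0.89 to 4.42 ± 1.99 CPM (SD, n = 6 each). Tcf7 rose by 1.41 (SE 0.37, adjusted p = 0.036) and the corepressor Tle4 by 1.39 (SE 0.40, adjusted p = 0.048). Ctnnbip1, which encodes a protein that blocks beta-catenin from binding TCF factors, fell, with a log2 fold change of -1.20 (SE 0.17, adjusted p = 0.006). It stood at 47.0 ± 9.49 CPM in controls, 31.4 ± 2.90 under anti-PD-1, 16.2 ± 4.18 under entinostat and 17.4 ± 1.90 under both agents (SD, n = 3 each). Its 6 libraries with entinostat, at most 19.6 CPM, did not overlap the 6 without, at least 28.1 CPM. The same held for Scg5, Stmn3 and Elavl4 of the neuroendocrine list, and for Cd44 in the other direction. The share of all genes lower in this way was not counted, so the separation of Ctnnbip1 is only a description. Of 10 other target genes 2 rose with entinostat, beside 3.87% of all genes. They were Cd44, an adhesion receptor (1.09, SE 0.22, edgeR adjusted p = 0.015), and Wisp1, a matricellular protein (1.12, SE 0.31, adjusted p = 0.045).

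**Figure D4:**
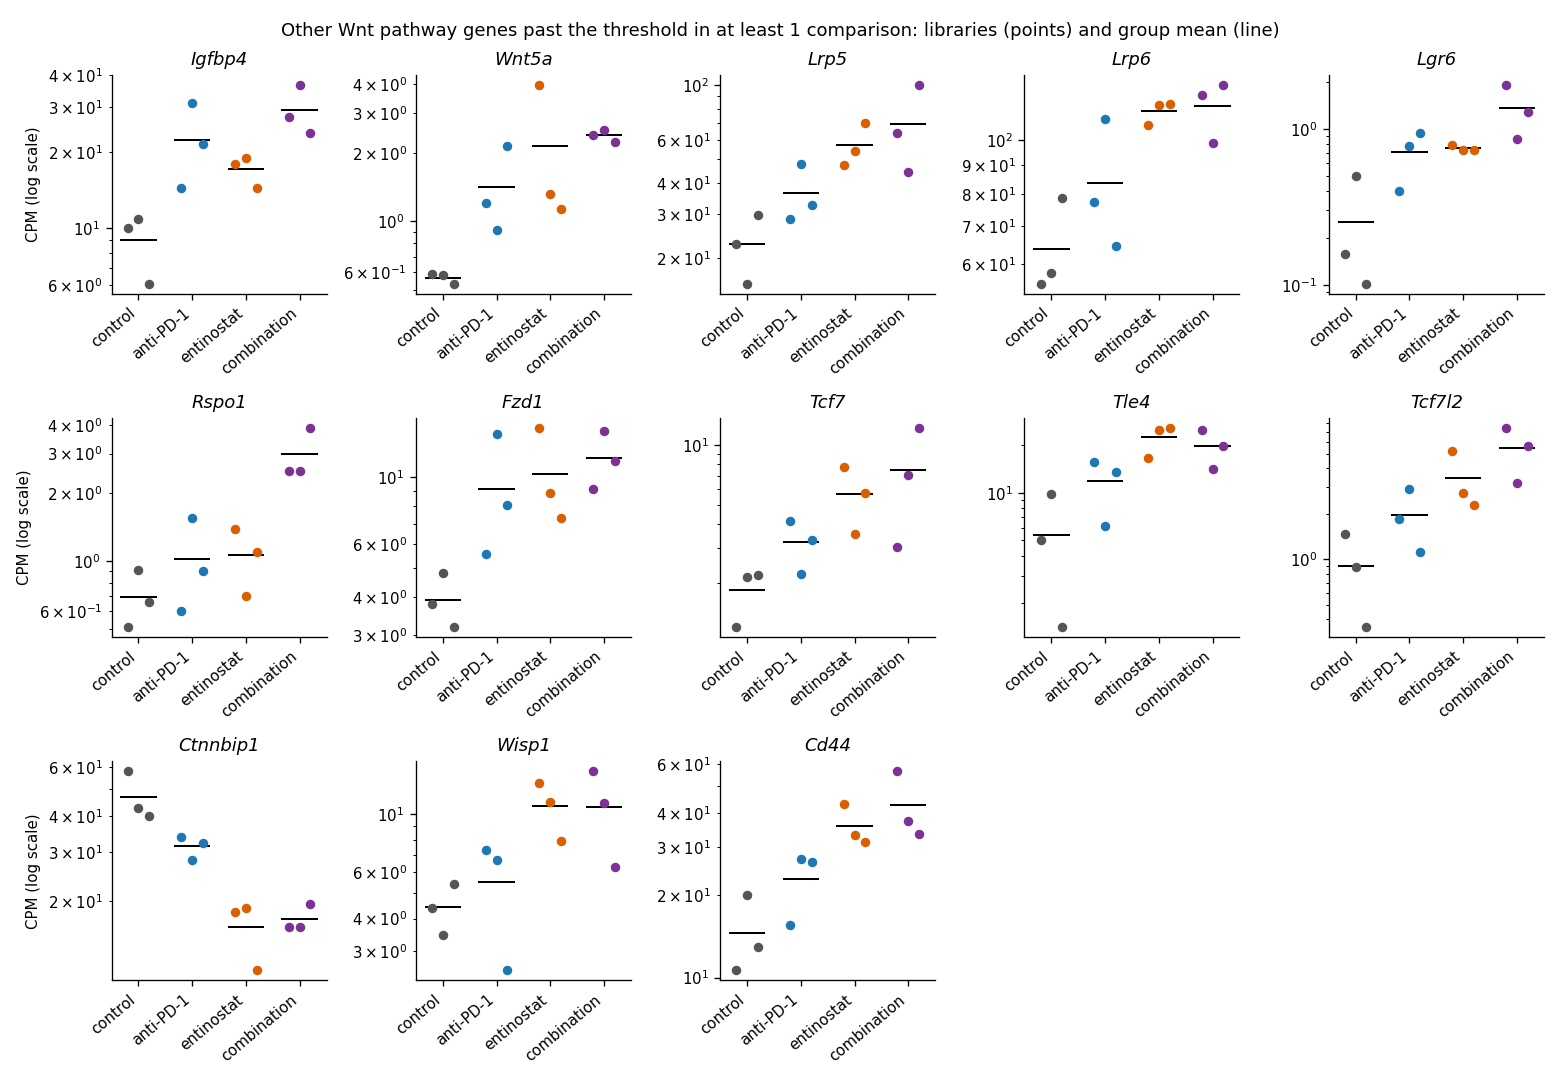
The 13 pathway genes past the threshold in at least 1 comparison are plotted with CPM on a log axis, a point per library and a line at each group mean of 3. Ctnnbip1 lies lowest in the 6 libraries with entinostat (11.4 to 19.6 CPM), while Lrp5, Cd44 and Tcf7l2 lie higher there than in the control group.

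Calls of Lrp5, Cd44 and Ctnnbip1 in the entinostat main effect held in all 12 fits that left out a library. Tcf7l2 and Lrp6 passed in 5 of the 12, and Tcf7, Tle4 and Wisp1 in 2. In the combination against control, Lgr6 passed in 1 of the 12, Wnt5a in 4, Fzd1 in 6 and Rspo1 in 8. With the replicate number as a block, Lrp6, Tcf7, Tle4 and Wisp1 did not pass in the main effect, at edgeR adjusted p between 0.0551 and 0.0791. For entinostat alone against control Lrp5 and Cd44 did not pass (0.0589 and 0.0729), and in the combination against control Lgr6, Tcf7, Wnt5a, Rspo1 and Lrp6 did not (0.0569 to 0.0768).

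The genes whose levels followed Sfrp2 most closely over the 12 libraries were Wdr60 (Pearson r = 0.97 of log2 CPM), Pnn (0.96), Bmp4 (0.93), Lpl (0.93), Frmd6 (0.93) and Cryz (0.92). Wdr60 encodes a dynein component of cilia, Pnn a splicing-associated nuclear protein, Bmp4 a growth factor ligand and Lpl lipoprotein lipase. The most opposed genes were Scg5 (-0.93), Mapre2 (-0.93) and Hk1 (-0.93). These values describe 12 points that share libraries and the division by entinostat. Among the members, Sfrp1 (0.66) and Lef1 (0.65) had the highest correlation with Sfrp2 and Wif1 the lowest (-0.60). Within the 6 libraries without entinostat these were 0.50, -0.46 and -0.72.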

How the data were processed

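The authors deposited raw counts per gene symbol for the 12 libraries in a single table, and all columns were used. RNA came from flash-frozen dissected tumour, with poly(A) selection, per the labels' protocols. The submitters' processing notes list mouse build mm9 and, as tools, STAR 2.5.4a, Trimmomatic 0.36, Trim Galore, R 3.5.1 and DESeq2 1.22.2. No label gives the annotation or a strand setting, so overlapping genes are uncertain. All libraries carry batch label 2.

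Groups follow the titles. The tests used edgeR 4.0.16 (R 4.3.3), with its filterByExpr, TMM scaling and a mean per group fitted to all 12 libraries. The robust quasi-likelihood F test gave log2 fold changes, SE and p-values, adjusted by Benjamini-Hochberg over 17426 genes in each of 8 comparisons (threshold 0.05). Log2 CPM used a prior count of 2. The smallest chi-square per degree of freedom over 66 library pairs was 31.8, so none looked like a repeat deposit.

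Members, gene lists and tests were chosen with earlier results of these data known. Named pathway genes are those past the threshold, at most 4 per list and comparison by adjusted p (5 receptor genes were named, the last after its value was seen); likeness to Sfrp2 took the 6 highest and 3 lowest correlations among tested genes whose log2 CPM averaged 1 or more, without predicted genes. Where no listed gene passed, the 2 most abundant could be named, and from marker lists the 3 most abundant; Pdgfra, the mural and the neuroendocrine genes were named after their values were seen. Transcript lengths came from GENCODE for GRCm38. Simulated data with 200 changed genes tested the scripts: 23.6% of genes changed 2-fold and 67.2% of those changed 4-fold were recovered in the entinostat main effect, and 6.20% of calls were false. Alternatives were other scaling factors, filters, DESeq2 1.42.0, fits of 2 groups, a replicate block, halved counts, 3 structural RNAs removed and each library left out.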

Additional observations from a re-analysis of the deposited data

How the results depend on the processing

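Sfrp2 kept a positive entinostat main effect in all 20 alternatives (2.86 to 3.48), as did Lef1 (2.02 to 3.60). Upper quartile factors moved the median of all genes from 0.02 to 0.15 and turned the split of calls from 674 higher and 1175 lower to 1046 and 632; over all alternatives these calls numbered between 600 and 3342, against 1849. As a description only, the number of members called in the entinostat main effect was 2, or 4 under DESeq2 and 1 to 2 without single libraries. For entinostat alone against control it was 1, or 3 under DESeq2, 0 with only those groups in the fit, 0 with the replicate block and 0 to 1 without single libraries. For the combination against control it was 2, or 3 under DESeq2, 0 with only those groups and 0 to 2 without single libraries, and for the combination against anti-PD-1 it was 0, or 1 under DESeq2. The number of pathway genes called in the entinostat main effect was 8, or 13 under upper quartile factors, 18 under DESeq2, 4 with the replicate block and 3 to 9 without single libraries. For entinostat alone it was 3, or 13 under DESeq2, 0 with only those groups, 1 with the block and 0 to 4 without single libraries. For the combination against control it was 11, or 19 under DESeq2, 0 with only those groups, 6 with the block and 3 to 12 without single libraries. Under DESeq2 it was 2 for the combination against anti-PD-1, 1 for the anti-PD-1 main effect and 1 for anti-PD-1 alone, against 0 each. Fits with fewer libraries or groups hold less information on the spread; the cause of the other shifts was not tested.

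Deviations from the group mean correlated at r from -0.29 to 0.23 between same-numbered libraries, and 8 of 18 pairs had r above 0.1. Differently numbered pairs were not compared, so these values cannot tell whether the numbers pair the samples. Signs of uncalled values turned without single libraries only. The anti-PD-1 main effect then ranged from -0.26 to 0.49 for Sfrp2, -0.92 to 0.26 for Sfrp4, -1.15 to 0.44 for Sfrp5, -0.33 to 0.47 for Dkk2 and -0.38 to 0.15 for Dkk3. The interaction ranged from -0.15 to 1.34 for Sfrp2, -2.32 to 0.36 for Lef1 and -2.40 to 0.69 for Wif1. Frzb could not be tested with a CPM of at least 1 in 3 libraries. Frzb and, in controls, Lef1 rest on few counts, so their values carry the most counting error.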
